A study of Mus musculus with 13 samples.

Results

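The mitochondrial respiratory chain and ATP synthase are built from subunits encoded in both the mitochondrial and the nuclear genome. The genes examined here were the nuclear-encoded subunits of complexes I, III, IV and V in the livers of ethanol-fed mice. They were found as the rows of the gene count table whose mouse symbols begin with Nduf (followed by a, b, c, s or v and a digit), Uqcr, Cox4 to Cox8 or Atp5, leaving out symbols with -ps and genes with mean CPM (counts per 1000000 counted) below 1 over the 13 mice. Of 53392 rows, 93 matched, 8 of them were left out by symbol and 11 by level, and 74 remained. These 74 members comprised 36 genes of complex I, 8 of complex III, 12 of complex IV and 16 of complex V. Of these, Ndufb4c (complex I) and Cox6c2 (complex IV) are annotated as processed pseudogenes and were kept because the rule goes by symbol. The other 2 were Cox7a2l, which helps to join complexes III and IV into supercomplexes, and Atp5s, a coupling factor of ATP synthase.

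Whole-liver RNA was measured by RNaseq in 3 groups of female mice aged 8 to 14 weeks, all given 28% of their calories as ethanol for 4 weeks. All were homozygous for Albumin-Cre and for a Rosa26 cassette (loxP-stop-loxP-rtTA) that Cre opens, so that rtTA is made in hepatocytes. ASAH+ mice also carried TRE-ASAH1, an acid ceramidase transgene that doxycycline (Dox) switches on in those cells, and ASAH- littermates did not. The groups were 4 ASAH- Etoh-Dox mice, 5 ASAH+ Etoh-Dox mice and 4 ASAH+ Etoh mice without Dox, and Dox was given at 200 mg/l. The Etoh group therefore lacked Dox as well as transgene induction, and only the first 2 groups differed in the transgene alone. For the ASAH+ mice the titles and the descriptions of the samples name opposite Dox treatments, and the descriptions were followed. Asah1 stood at 10200 to 15820 CPM in the 5 mice labelled ASAH+ Etoh-Dox and at 39.6 to 55.2 CPM in the other 8 mice. In all, 17819486 to 35358711 reads per mouse were counted on genes, of which 145487 to 313259 fell on the 74 members, and the lowest count of any member in any mouse was 34. Of the liver's defining markers, 8 hepatocyte genes took 9.34 to 14% of counts, whereas the 7 muscle markers were at or near 0 (Myh6 and Mb at 0 in all 13 mice).

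Complex I passes electrons from NADH to ubiquinone, complex III from ubiquinol to cytochrome c and complex IV from cytochrome c to oxygen, while protons are moved across the inner membrane. Complex V, the ATP synthase, lets them return and makes ATP. In liver this machinery reoxidizes the NADH that ethanol and fatty acid oxidation produce, and its nuclear genes are known to be driven by shared factors, among them NRF1, GABP (also called NRF2) and YY1.

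The promoters of the members were searched for letters that such factors bind. Their part in the variation that the members shared between mice (below) was not tested. RefSeq promoters (GRCm38.p6, 250 bases before to 50 after a start) were matched for 59 of 74 members. The NRF1 letters GCATGCGC or their reverse complement were in 9 of 59 members (15.3%) against 3.05% of 27025 genes. The GABP letters CCGGAAG were in 14 (23.7% against 9.93%), and the YY1 letters AAGATGGC in 9 (15.3% against 3.19%), both strands searched in each case. The TATA box letters TATAAA were in 5 members (8.47% against 15.7%), and the letters TCAAGGTCA, bound by estrogen-related receptors, were in Atp5g3 alone (1.69% against 0.466%). A match describes letters in this window and is not evidence of binding. The 4 promoters below were chosen among the members named in the results as examples that hold an NRF1, GABP or YY1 match. Others named there, among them Uqcr10, Ndufa7, Ndufb3, Cox7a2 and Ndufv3, hold none of these letters in the window and are not printed. They are printed 5′ to 3′ on the strand of the gene, with every NRF1, GABP or YY1 match in capitals. Uqcr11 (chr10:80406772-80407071, minus strand) and Cox6a1 (chr5:115348909-115349208, minus strand) hold both NRF1 and GABP matches, and the NRF1 letters in Cox6a1 overlap on the 2 strands. Ndufs7 (chr10:80249199-80249498, plus strand) and Ndufa9 (chr6:126849095-126849394, minus strand) hold a YY1 match near the end of the window.
Uqcr11: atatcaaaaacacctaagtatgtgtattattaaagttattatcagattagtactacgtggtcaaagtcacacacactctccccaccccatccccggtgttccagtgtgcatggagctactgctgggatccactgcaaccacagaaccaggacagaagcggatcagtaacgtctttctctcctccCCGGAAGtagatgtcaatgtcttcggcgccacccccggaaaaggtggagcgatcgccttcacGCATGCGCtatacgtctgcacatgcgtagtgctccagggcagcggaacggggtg
Cox6a1: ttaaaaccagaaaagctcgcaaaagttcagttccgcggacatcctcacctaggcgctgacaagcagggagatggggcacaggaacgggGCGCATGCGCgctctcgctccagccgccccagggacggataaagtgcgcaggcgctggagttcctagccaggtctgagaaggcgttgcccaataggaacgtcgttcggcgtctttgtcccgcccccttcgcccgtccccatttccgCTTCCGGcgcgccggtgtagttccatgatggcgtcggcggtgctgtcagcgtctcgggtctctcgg
Ndufs7: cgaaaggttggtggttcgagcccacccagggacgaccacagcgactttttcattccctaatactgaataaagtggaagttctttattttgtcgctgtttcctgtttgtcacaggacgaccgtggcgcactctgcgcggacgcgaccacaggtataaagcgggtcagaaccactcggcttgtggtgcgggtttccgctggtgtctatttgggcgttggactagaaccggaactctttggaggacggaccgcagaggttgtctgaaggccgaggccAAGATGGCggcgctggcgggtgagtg
Ndufa9: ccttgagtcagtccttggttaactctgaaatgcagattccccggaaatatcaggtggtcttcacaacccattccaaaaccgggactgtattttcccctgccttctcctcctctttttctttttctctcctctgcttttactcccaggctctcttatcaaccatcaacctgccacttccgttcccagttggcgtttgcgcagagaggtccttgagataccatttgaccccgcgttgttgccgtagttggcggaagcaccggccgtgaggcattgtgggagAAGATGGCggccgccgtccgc

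The members differed widely in level. Levels between genes were compared as TPM (transcripts per 1000000), that is, counts divided by the length of the gene's longest transcript and scaled to the same total in every mouse. With this length, the highest level was that of Atp5b, the catalytic beta subunit of ATP synthase, at 1082, followed by Atp5a1, the alpha subunit, at 689. In complex IV, Cox4i1 was highest at 645 and Cox6c lowest at 69.1. In complex III the levels ran from Uqcrb at 350 to Uqcrq at 108, and in complex I from Ndufb9 at 322 to Ndufb2 at 9.997. The median member stood at 97.8 TPM in complex I, 207 in complex III, 230 in complex IV and 195 in complex V, and the complex I median was the lowest of the 4.

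**Figure D1:**
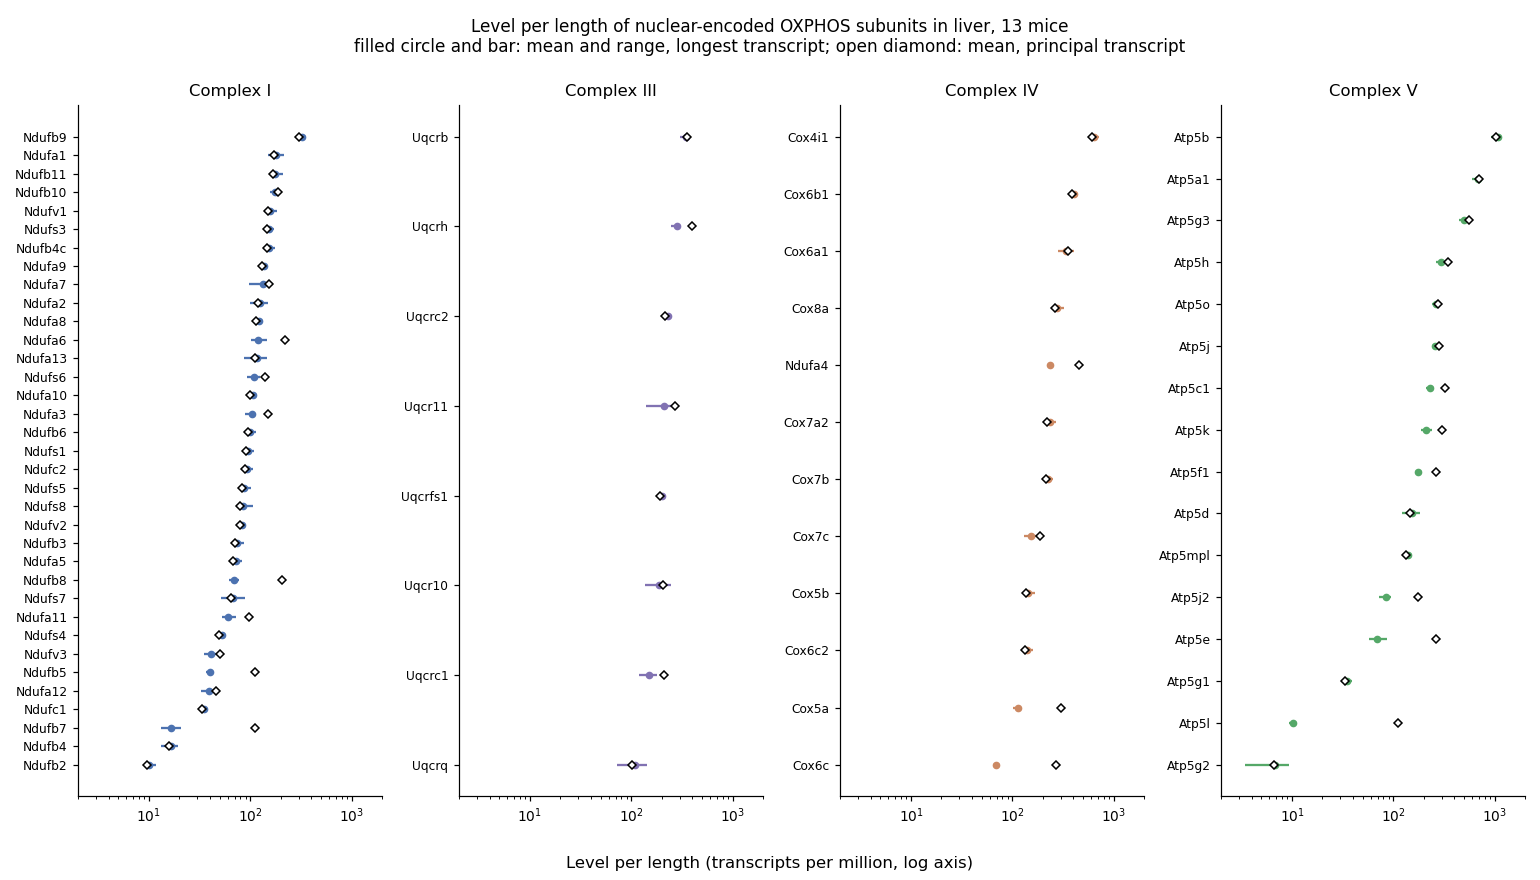
Level per length of members of each complex (TPM, log axis), with filled circles for the mean, bars for the range over 13 mice when the longest transcript sets the length, and open diamonds for the mean with the principal transcript. Atp5b is highest at 1082 and Atp5g2 lowest in complex V at 6.77, and the diamonds stand well to the right for genes with a long minor transcript such as Cox6c.

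The length chosen matters for some of these. With the principal transcript of the annotation, Cox6c stood at 270 in place of 69.1 TPM and was no longer the lowest in its complex. Atp5b (1027), Atp5a1 (708) and Cox4i1 (612) stayed the first 3, and Uqcrh (397) passed Uqcrb (351) in complex III. With all exons of a gene joined, Atp5a1 (688) passed Atp5b (573), Cox6b1 (414) passed Cox4i1 (372), and Uqcrc1 (104) lay just under Uqcrq (105). Ndufb2 stayed the lowest of complex I with each length, but its principal transcript has 4371 bases, beside a median of 787 over the members. In CPM, where length is not taken into account, Ndufb2 stood at 22.9, above Ndufb4 at 8.45. A second limit is sequence shared with copies. Of the 74 members, 11 shared at least 100 stretches of 31 bases with another gene of at least 1 CPM, so reads could be divided between them. Atp5g2, for example, stood at 2.67 CPM beside 75.6 CPM for Gm10175, and Ndufb4 at 8.45 CPM beside 31.2 CPM for Ndufb4c, another member whose whole sequence it contains.

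Isoforms known from other tissues stood far below their liver counterparts. Cox4i1 stood at 645 TPM and Cox4i2 at 0.143. Cox6b1 stood at 405 and Cox6b2 at 0.762, Cox6a1 at 341 and the muscle form Cox6a2 at 0.0254. Cox8a stood at 277 and Cox8b, a heart and muscle form, at 0.0344, and Cox7a2 stood at 233 against 3.33 for Cox7a1, which was counted in all 13 mice. The 3 genes Atp5g1, Atp5g2 and Atp5g3 encode the same mature c subunit of the rotor ring, and Atp5g3 was highest at 496, with Atp5g1 at 35.1 and Atp5g2 at 6.77. In CPM, where length is not taken into account, Atp5g1 went from 86.6 to 128 and Atp5g2 from 2.67 to 78.2 with their copies included, beside 224 for Atp5g3.

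The first comparison asked whether induced acid ceramidase went with a different level of these genes, ASAH+ Etoh-Dox against ASAH- Etoh-Dox, groups that differ in the transgene alone. None of the 74 members passed an adjusted p-value of 0.1 in edgeR's quasi-likelihood test, where 0.014% of the 14317 genes tested did (2 genes, Asah1 and, named after its value was seen, Sod1). At an unadjusted p-value below 0.05 there were again 0 members, against 2.86% of all genes. Leaving out 1 mouse, this count was 1 without ASAH- replicate 2 (2.67% of all genes in that fit), 3 (2.2%) or 4 (4.98%) or ASAH+ Etoh-Dox replicate 1 (3.47%), and 0 with each of the other 9 mice left out in turn. For 0 members did the 2 groups not overlap, against 0.887% of all genes. The tests and the overlap are on CPM scaled by TMM (trimmed mean of M-values) factors of 0.965 to 1.056, whereas the CPM printed for each mouse are of its total counts. On these unscaled CPM the groups again overlapped for all 74 members, against 0.936% of genes whose groups did not. DESeq2 on all mice and on the 2 groups, and limma-voom, also called 0 members, against 0.0759%, 0.0578% and 0.014% of genes with an adjusted p-value. The members' log2 fold changes were small, with a median of -0.045 beside -0.0023 over all genes tested, and 14 of 74 were above 0. By complex, the median was -0.026 in complex I, -0.077 in complex III, -0.064 in complex IV and -0.045 in complex V. For 73 of 74 members the 95% interval lay within a 1.5-fold change either way, and the exception was Atp5g2, the member with the widest error (log2 fold change 0.41, 95% interval -0.23 to 1.04). With its copy included, Atp5g2 measured 78.5, 91.0, 83.1 and 78.7 CPM in ASAH- mice. In ASAH+ Etoh-Dox mice this sum was lower on average, at 85.4, 78.3, 71.35, 74.3 and 80.7 CPM, so the direction of its fold change depended on shared reads. Markers of other cells were also below 0 in this comparison, namely all 6 sinusoidal endothelial markers (median log2 fold change -0.40, 4 below an unadjusted p-value of 0.05), all 7 Kupffer cell and macrophage (-0.30), all 6 stellate cell (-0.20), all 5 cholangiocyte (-0.35) and all 5 red cell markers (-0.36). The 8 hepatocyte markers had a median of -0.21, with 1 above 0, and the 80 ribosomal protein genes a median of -0.052, with 15 above 0. Also below an unadjusted p-value of 0.05 in edgeR were 1 stellate cell marker, 1 hepatocyte marker and 1 ribosomal protein gene, all lower. No Kupffer cell, cholangiocyte or red cell marker was, and no gene of these lists passed after adjustment. The part of these lists in the members' values was not tested, and in whole liver fewer cells of a type and less RNA per cell cannot be told apart.

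**Figure D2:**
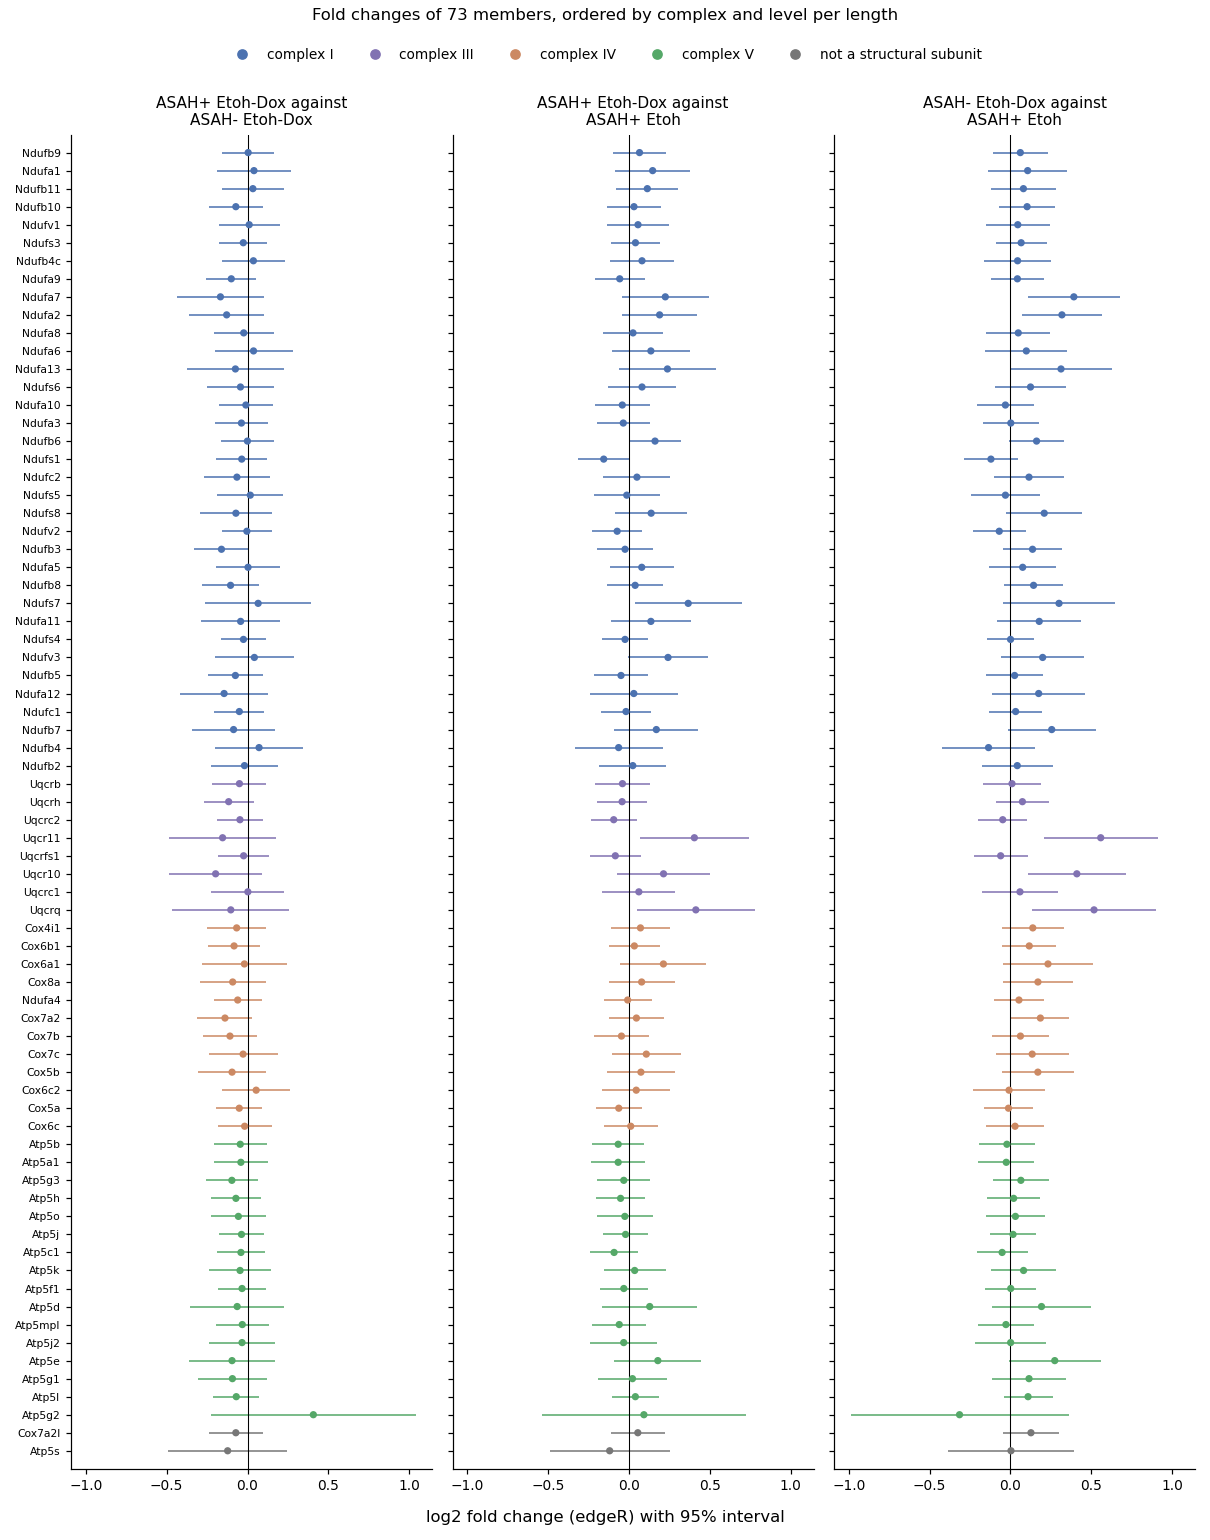
Log2 fold change of 73 members (points) with its 95% interval (lines) in the 3 comparisons, coloured by complex. Most points in the left panel lie just below 0, whereas Uqcrq, Uqcr11 and Ndufs7 lie farthest to the right in the middle panel and Uqcr11, Uqcrq and Uqcr10 in the right panel, and Atp5g2 has the widest interval.

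The members nearest to a difference were of complexes I, III and IV. Ndufb3, an accessory subunit of the membrane arm of complex I, measured 31.5, 35.7, 29.4 and 30.2 CPM in the ASAH- mice and 31.4, 28.2, 29.9, 26.6 and 28.6 CPM in the ASAH+ Etoh-Dox mice, a log2 fold change of -0.16 ± 0.080 (SE) with an adjusted p-value of 1.00 in edgeR and an unadjusted one of 0.0633. The groups overlapped, and ASAH- replicate 2 was highest. Cox7a2, the ubiquitous form of complex IV subunit 7a, differed by -0.14 ± 0.079 on the log2 scale, with 86.2, 96.6, 78.4 and 84.0 CPM against 84.4, 81.7, 77.0, 72.2 and 84.9 CPM. Uqcrh, the hinge protein of complex III, differed by -0.12 ± 0.072, Uqcr10 by -0.20 ± 0.13 and Ndufa9, an accessory subunit near the quinone site of complex I, by -0.10 ± 0.072. All 5 had an adjusted p-value of 1.00 in edgeR. Leaving out ASAH- replicate 2 moved Ndufb3 to -0.097, Cox7a2 to -0.079, Uqcr10 to -0.090, Uqcrh to -0.093 and Ndufa9 to -0.069. Without ASAH- replicate 2, in which 71 of 74 members stood above their own mean over the mice, the median log2 fold change was -0.0091 and 34 members were above 0, beside -0.079 and 6 without ASAH- replicate 4.

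The second comparison set the ASAH+ Etoh-Dox mice against ASAH+ Etoh mice, so that Dox and the induced transgene differ together and cannot be told apart. Again 0 of 74 members passed in edgeR (0.014% of all genes), and 0 in DESeq2 on all mice, which gave 43 of the 74 an adjusted p-value (4.94% of the genes that had one), in DESeq2 on the 2 groups (0.839%) and in limma-voom (0.014%). At an unadjusted p-value below 0.05 there were 3 members (Uqcr11, Uqcrq and Ndufs7) against 7.29% of all genes. This count, with the share of all genes in the same fit, was 0 without ASAH+ Etoh-Dox replicate 5 (6.84%), without ASAH+ Etoh replicate 1 (5.23%) and with the replicate block (5.47%). It was 1 without ASAH+ Etoh-Dox replicate 4 (6.02%) or ASAH+ Etoh replicate 2 (7.51%), 5 without ASAH- replicate 4 (8.1%) and 6 without ASAH+ Etoh-Dox replicate 2 (8.27%). After scaling the groups overlapped for all members (2.58% of all genes did not overlap), and in unscaled CPM they did not for Ndufv3 and Ndufb6 (2.84%). The median log2 fold change was 0.034 beside 0.013 over all genes, with 44 of 74 above 0, and it turned to -0.00056 without ASAH+ Etoh-Dox replicate 5 and -0.0064 without ASAH+ Etoh replicate 2. In 70 of 74 members the 95% interval lay within 1.5-fold, the exceptions being Ndufs7, Uqcr11, Uqcrq and Atp5g2.

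The third comparison, ASAH- Etoh-Dox mice against ASAH+ Etoh mice, differs in genotype and Dox, with no transgene induced in either group. It called 0 members in edgeR (0.014% of all genes), DESeq2 on all mice (1.73%, 72 members with an adjusted p-value), DESeq2 on the 2 groups (1.57%) and limma-voom (0.00698%). At an unadjusted p-value below 0.05 there were 6 members, all higher in the ASAH- mice, against 9.18% of all genes. After scaling the groups did not overlap for 3, Cox7a2, Atp5l and Ndufb6 (5.5% of all genes), and in unscaled CPM for Atp5l, Ndufb6 and Uqcrq (5.47%). The median log2 fold change was 0.065 beside 0.016 over all genes, and 59 of 74 were above 0. Without ASAH- replicate 2 this median was 0.021 beside 0.018 over all genes, with 45 above 0. It was 0.040 with 48 above 0 without ASAH+ Etoh replicate 2, and 0.093 with 59 above 0 without ASAH- replicate 4. For 67 of 74 the 95% interval lay within 1.5-fold. Without ASAH- replicate 4, 17 members were below an unadjusted p-value of 0.05 (12.8% of all genes in that fit), without ASAH- replicate 2 there were 3 (7.09%), and none passed the adjusted threshold in either. This comparison and the second share the 4 ASAH+ Etoh mice, and this one and the first share the 4 ASAH- mice.

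The members with the highest log2 fold changes in the third comparison were 3 accessory subunits of complex III. Uqcr11 (chromosome 10, 80402997 to 80406830, minus strand, GRCm38) measured 72.5, 88.0, 89.4 and 58.6 CPM in the ASAH- mice. In the ASAH+ Etoh-Dox mice it measured 81.7, 64.3, 57.4, 68.7 and 82.5 CPM. In the ASAH+ Etoh mice it measured 48.4, 42.8, 60.8 and 55.9 CPM. Of the mice on Etoh, 3 thus lay below every mouse on Etoh-Dox, and the other lay among the lowest of them.

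Against ASAH+ Etoh, Uqcr11 was higher by 0.40 ± 0.16 on the log2 scale in the ASAH+ Etoh-Dox mice (edgeR unadjusted p = 0.0217, adjusted p = 0.603). In the ASAH- mice it was higher by 0.56 ± 0.16 (edgeR unadjusted p = 0.00433, adjusted p = 0.389). By exact two-sided permutation of the mice these p-values were 0.0556 and 0.0571, where 0.00794 and 0.0286 are the smallest that 5 against 4 and 4 against 4 mice allow. Below 0.05 by permutation were Ndufs1 alone in the second comparison (0.0397, 1.35% of members against 7.3% of all genes), and Cox7a2, Atp5l and Ndufb6 in the third (4.05% against 5.5%). In the first, 0 members were (2.75% of all genes). After adjustment over all genes, Uqcr11 passed the threshold in neither comparison, and no member passed by permutation. With DESeq2 on all mice the smallest adjusted p-value of any member in the third comparison was 0.109.

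Uqcrq (chromosome 11, 53427922 to 53430831, minus strand), another accessory subunit of complex III, followed the same mice. It measured 94.2, 111, 107 and 77.3 CPM in ASAH- mice, 106, 71.1, 73.9, 96.8 and 115 CPM in ASAH+ Etoh-Dox mice, and 60.5, 56.1, 76.9 and 76.4 CPM in ASAH+ Etoh mice. Replicates 1 and 2 on Etoh were the lowest of the 13 mice, and the other 2 lay above the lowest ASAH+ Etoh-Dox mice and just under the lowest ASAH- mouse. The log2 fold changes against ASAH+ Etoh were 0.41 ± 0.17 (adjusted p = 0.621) and 0.52 ± 0.18 (adjusted p = 0.436) in edgeR.

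Uqcr10 (chromosome 11, 4701973 to 4704342, minus strand) measured 54.3, 68.5, 56.8 and 46.6 CPM in ASAH- mice, 60.8, 48.0, 43.8, 44.4 and 55.02 CPM in ASAH+ Etoh-Dox mice, and 41.5, 35.8, 43.0 and 48.7 CPM in ASAH+ Etoh mice. Its log2 fold change was 0.41 ± 0.14 in the third comparison (adjusted p = 0.42 in edgeR). The other complex III members did not share these sizes. In the third comparison Uqcrc1 and Uqcrc2, the core proteins, Uqcrfs1, the Rieske iron-sulfur protein, Uqcrb and Uqcrh had log2 fold changes between -0.060 and 0.074.

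In complex I the members farthest from 0 were single subunits. Ndufa7 (chromosome 17, 33824572 to 33838317, plus strand), an accessory subunit of the peripheral arm, measured 48.7, 55.6, 56.5 and 41.5 CPM in ASAH- mice against 38.6, 31.9, 39.9 and 42.7 CPM in ASAH+ Etoh mice, with 40.7 to 56.4 CPM in the ASAH+ Etoh-Dox mice. Its log2 fold change in the third comparison was 0.39 ± 0.13 (adjusted p = 0.409 in edgeR), and that of Ndufa2, a neighbouring accessory subunit, was 0.32 ± 0.11 (adjusted p = 0.441). In both, the scaled value was higher in the ASAH- mouse in 14 of 16 pairs, so the groups overlapped.

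The core subunits of the peripheral arm, which carry the flavin and the iron-sulfur clusters, did not move as a block. Ndufs7, which holds the last iron-sulfur cluster before ubiquinone, measured 46.3, 31.4, 28.9, 41.9 and 44.7 CPM in ASAH+ Etoh-Dox mice and 27.4, 25.5, 31.8 and 31.7 CPM on Etoh, a log2 fold change of 0.37 ± 0.15 (adjusted p = 0.63 in edgeR). The Etoh-Dox mice fell into 3 high values and 2 inside the range of the Etoh mice. Ndufs1, the largest of the iron-sulfur subunits, went the other way, at 139, 141, 124, 124 and 124 CPM against 151, 134, 137 and 143 CPM, a log2 fold change of -0.16 ± 0.073 (adjusted p = 0.68 in edgeR), and the groups overlapped. Ndufs3, Ndufs8, Ndufv1 and Ndufv2 had log2 fold changes of -0.073 to 0.14 in the second comparison. Ndufv3, an accessory subunit at the NADH-oxidizing end, differed by 0.24 ± 0.11 (adjusted p = 0.681 in edgeR), and by 0.15 without ASAH+ Etoh-Dox replicate 5 and 0.16 with the replicate block.

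**Figure D3:**
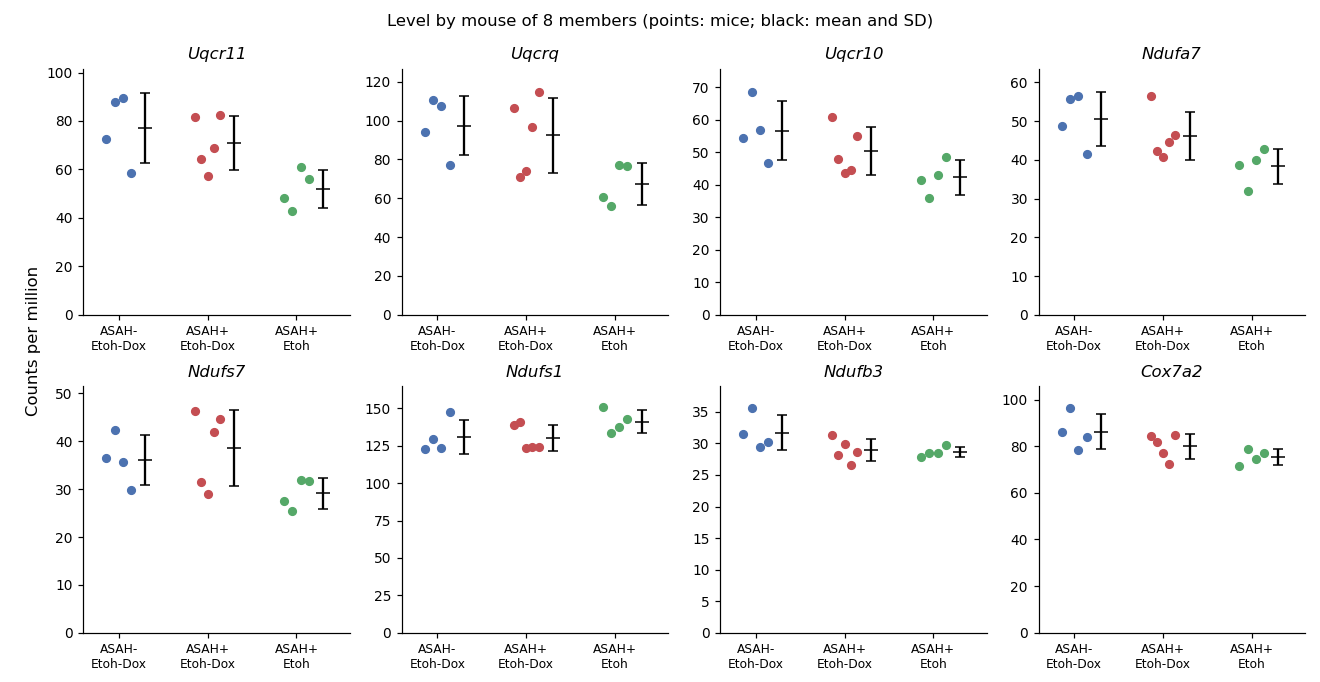
CPM in each mouse (points) of 8 members in the 3 groups, with the mean and SD in black on an axis from 0. Uqcr11 runs from 42.8 to 60.8 CPM in ASAH+ Etoh mice and from 57.4 to 89.4 CPM in the mice on Etoh-Dox, whereas Ndufs1 is highest in an Etoh mouse at 151 CPM.

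In complex IV the median log2 fold change was -0.064, 0.045 and 0.13 in the first, the second and the third comparisons. Its largest log2 fold change in the third comparison was 0.23 ± 0.13 for Cox6a1, the liver form of subunit 6a (adjusted p = 0.62 in edgeR), and Cox7a2, whose groups did not overlap after scaling but did in unscaled CPM, differed by 0.19 ± 0.084 (adjusted p = 0.529). In complex V the medians were -0.045, -0.029 and 0.018. Atp5b differed by -0.045, -0.067 and -0.022 on the log2 scale in the first, the second and the third comparisons, and Atp5a1 by -0.041, -0.067 and -0.026. Atp5e, the epsilon subunit, differed by 0.27 ± 0.13 in the third (adjusted p = 0.562 in edgeR). The 4 stalk subunits stayed between -0.072 and 0.031 in the 3 comparisons.

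Summed over the 74 members, the subunits took 0.828 ± 0.042% of counts in ASAH- mice (SD, n = 4), 0.818 ± 0.057% in ASAH+ Etoh-Dox mice (n = 5) and 0.793 ± 0.028% in ASAH+ Etoh mice (n = 4). The 13 mice ranged from 0.742 to 0.889%, and the 3 groups overlapped. By complex, complex V took the largest share at 0.321 to 0.394%, then complex I at 0.196 to 0.238%, complex IV at 0.119 to 0.146% and complex III at 0.0891 to 0.111%. The ranges of the 3 groups overlapped in complexes I, IV and V. In complex III the ASAH- mice (0.0975 to 0.110%) lay just above the ASAH+ Etoh mice (0.0901 to 0.0973%), and the ASAH+ Etoh-Dox mice overlapped both.

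**Figure D4:**
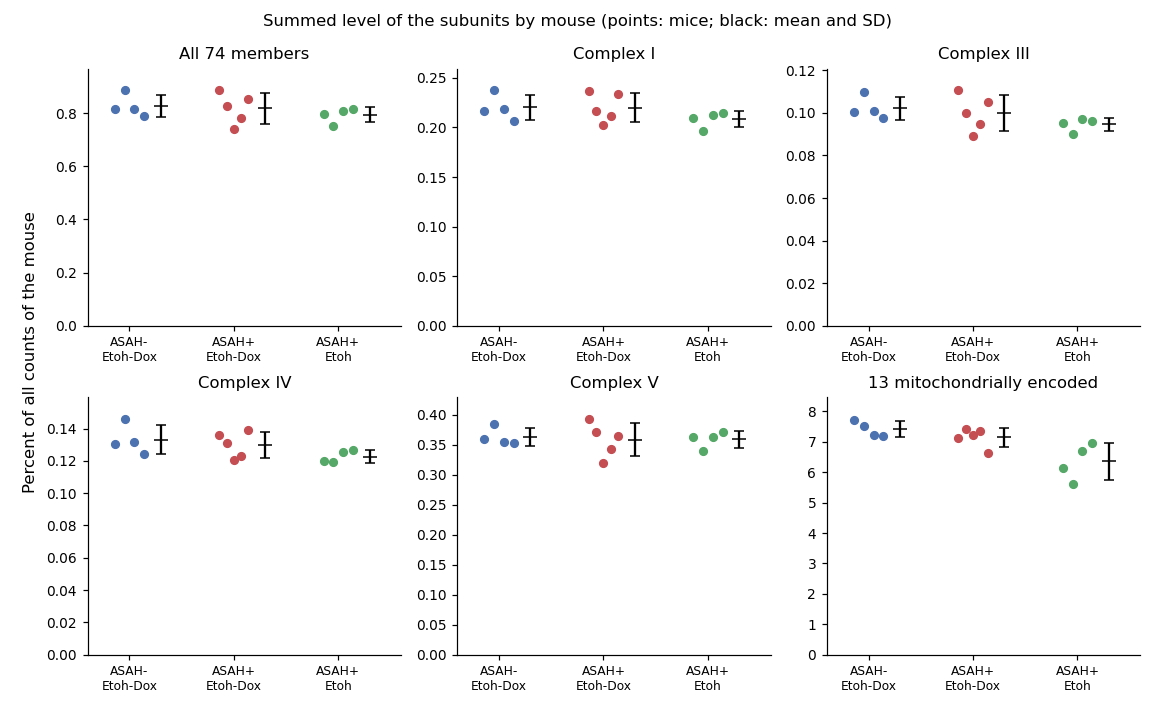
Percent of each mouse's counts (points) taken by all 74 members, by each complex and by the 13 mitochondrially encoded subunits, with the mean and SD of each group in black and axes from 0. The sums of all 74 members overlap between the groups, at 0.742 to 0.889% over all mice, whereas the mitochondrially encoded sum is 5.61 to 6.97% in ASAH+ Etoh mice and 7.18 to 7.73% in ASAH- mice.

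The other genes of the pathway were taken from lists of its remaining parts. Of the 13 mitochondrially encoded subunits, 2 passed in edgeR, both higher in ASAH- mice than in ASAH+ Etoh mice: mt-Co3 (log2 fold change 0.74 ± 0.10, adjusted p = 0.0633) and mt-Co2 (1.497 ± 0.22, adjusted p = 0.0799), both subunits of complex IV made on mitochondrial ribosomes. These calls lay near the threshold and changed with the mice fitted. With each of the 13 mice left out in turn, mt-Co3 passed in 3 of 13 fits and mt-Co2 in 1 of 13. The edgeR adjusted p reached 0.348 for both, while the log2 fold changes stayed between 0.69 and 0.80 and between 1.32 and 1.67. Both calls were also lost without ASAH+ Etoh-Dox replicate 2, a mouse of neither group compared (edgeR adjusted p = 0.126 and 0.142). Among the 12 other settings, mt-Co3 passed in 9 and mt-Co2 in 7, and with the replicate block neither did (adjusted p = 0.209 and 0.113 in edgeR). The adjusted p-values ran from 4.4e-08 and 8.3e-08 in DESeq2 on all mice to 0.291 for both in edgeR on the 2 groups. They were the only 2 of all 14317 genes called in the third comparison (0.014%). The third mitochondrially encoded subunit of complex IV, mt-Co1, differed there by -0.064 ± 0.091 (edgeR adjusted p = 0.882). Over all mice mt-Co2 stood at 542 to 2740 CPM and mt-Co1 at 15860 to 20230 CPM. Sequence shared with copies was searched for the members only. The part of divided reads in the values of the mitochondrially encoded genes was therefore not tested. In the first comparison none passed and 3 of the 13 were below an unadjusted p-value of 0.05 (2.86% of all genes), namely mt-Co2 (-0.60 ± 0.20), mt-Co3 (-0.32 ± 0.096) and mt-Nd3 (-0.30 ± 0.13). In the second mt-Co3 differed by 0.42 ± 0.097 (edgeR adjusted p = 0.409) and mt-Co2 by 0.89 ± 0.21 (edgeR adjusted p = 0.417). In each of the second and the third comparisons 5 of the 13 had an unadjusted p-value below 0.05, all higher (7.29% and 9.18% of all genes), and the groups did not overlap, in the same direction, for 3 and 5 of the 13 (2.58% and 5.5% of all genes).

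No gene of the other lists passed in any comparison. These were the 4 subunits of complex II, which passes electrons from succinate, the assembly factors of complexes I (17 genes), III (6), IV (23 tested of 24) and V (2), 11 regulators of nuclear respiratory genes and 5 subunits or carriers the symbol rule leaves out. The smallest p-values among the regulators were those of Ppargc1a, a coactivator (log2 fold change -0.26 ± 0.24 in the first comparison), Polrmt, the mitochondrial RNA polymerase (0.19 ± 0.14 in the second), and Nrf1 (0.21 ± 0.12 in the third). Among the complex IV assembly factors they were those of Coa7 (-0.20 ± 0.084), Lrpprc, which stabilizes mitochondrial mRNAs (-0.22 ± 0.083), and Coa5 (-0.15 ± 0.063), in the first, the second and the third comparisons. For the assembly factors of complex I they were Ndufaf5 (-0.28 ± 0.14), Nubpl (-0.20 ± 0.11) and Ndufaf8 (0.28 ± 0.21), for complex III Uqcc2 (-0.22 ± 0.17), Uqcc3 (0.26 ± 0.12) and Uqcc2 (0.40 ± 0.18), and for complex V Atpaf1 (-0.15 ± 0.11 and -0.13 ± 0.11) and Atpaf2 (0.020 ± 0.098). Complex II gave Sdha (0.058 ± 0.065), Sdhd (-0.13 ± 0.073) and Sdha (-0.10 ± 0.068). Of the subunits left out by symbol, Usmg5 differed by -0.11 ± 0.078 and 0.16 ± 0.082 in the first and the third comparison, and Cycs, cytochrome c, by -0.11 ± 0.092 in the second. Atpif1, the inhibitor of ATP hydrolysis by complex V, is not matched by the symbol rule and stood at 7.65 to 15.1 CPM, with log2 fold changes of -0.12, 0.097 and 0.22, none past the threshold.

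Between mice of a group the members moved together. The mean correlation of 2 members' deviations from their group means over the 13 mice was 0.52, beside 0.41 for 80 cytosolic ribosomal protein genes and 0.00067 over all 14317 genes, all given as descriptions, since the genes share libraries. The scaling over all genes and the centring on group means hold the last value near 0, so it gives no baseline for the others. It was 0.66 within complex V, 0.63 in complex IV, 0.54 in complex I and 0.42 in complex III. Atp5g3 followed the median of the other members most closely (r = 0.98), then Uqcr10 (0.97) and Cox6b1 (0.96), whereas Atp5s ran against it (-0.43) and Cox7a2l (0.041) and Ndufs1 (0.093) did not follow it. The median within-group SD of the members was 0.12 on the log2 scale, beside 0.24 over all genes tested. Atp5g2 (0.475), Uqcrq (0.28), Uqcr11 (0.26), Ndufs7 (0.25) and Atp5s (0.25) lay above the median of all genes. The part of count level in this was not tested.

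The mice that were high or low were the same for most members. The median member deviated from its own mean over the 13 mice by 0.16 on the log2 scale in ASAH- replicate 2, by 0.093 in ASAH+ Etoh-Dox replicate 5 and by 0.071 in replicate 1. It lay lowest in ASAH+ Etoh replicate 2 (-0.12), where 6 of 74 members were above their mean, and in ASAH+ Etoh-Dox replicate 4 (-0.098). Each group held mice with a median deviation above 0 and mice with one below 0, though the highest ASAH+ Etoh mouse stood at only 0.036.

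In most mice the deviations also followed the base composition of the transcripts. The GC content of the members' principal transcripts ran from 40.2% in Atp5s to 60.4% in Ndufa13. Across the 74 members the correlation of deviation with GC content was 0.57 in ASAH+ Etoh-Dox replicate 1 and 0.54 in replicate 5, and -0.57 in ASAH- replicate 4 and -0.54 in ASAH+ Etoh replicate 2. These were the extremes, and it was 0.0019 in ASAH+ Etoh replicate 3, 0.11 in ASAH- replicate 1 and -0.29 in ASAH+ Etoh-Dox replicate 2. It was -0.51 and -0.31 in ASAH+ Etoh replicates 1 and 4, and 0.41 and 0.33 in ASAH- replicates 2 and 3. In ASAH+ Etoh-Dox replicates 3 and 4 it was -0.47 and 0.38. Over all genes with a principal transcript the same correlation stayed between -0.21 and 0.24 in the 13 mice. The correlation of the log2 fold changes with GC content over the members was 0.57 in the second comparison and 0.41 in the third, but 0.10 in the first, beside 0.14, 0.21 and -0.087 over 14312 genes. With transcript length the rank correlation (Spearman) over the members was -0.42, -0.37 and 0.13 in the same order, beside -0.16, -0.22 and 0.11 over all genes. In the second comparison the median log2 fold change was -0.024 in the 37 members at or below the median GC content and 0.071 in the 37 above it, and in the third it was 0.042 and 0.12. Uqcrq, highest of the members in the second comparison at 0.41, had 50% GC and was among the 37 at or below the median. The part of base composition and length in the differences of Uqcr11 (59% GC), Ndufs7 (60%) and Uqcrq was not tested.

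**Figure D5:**
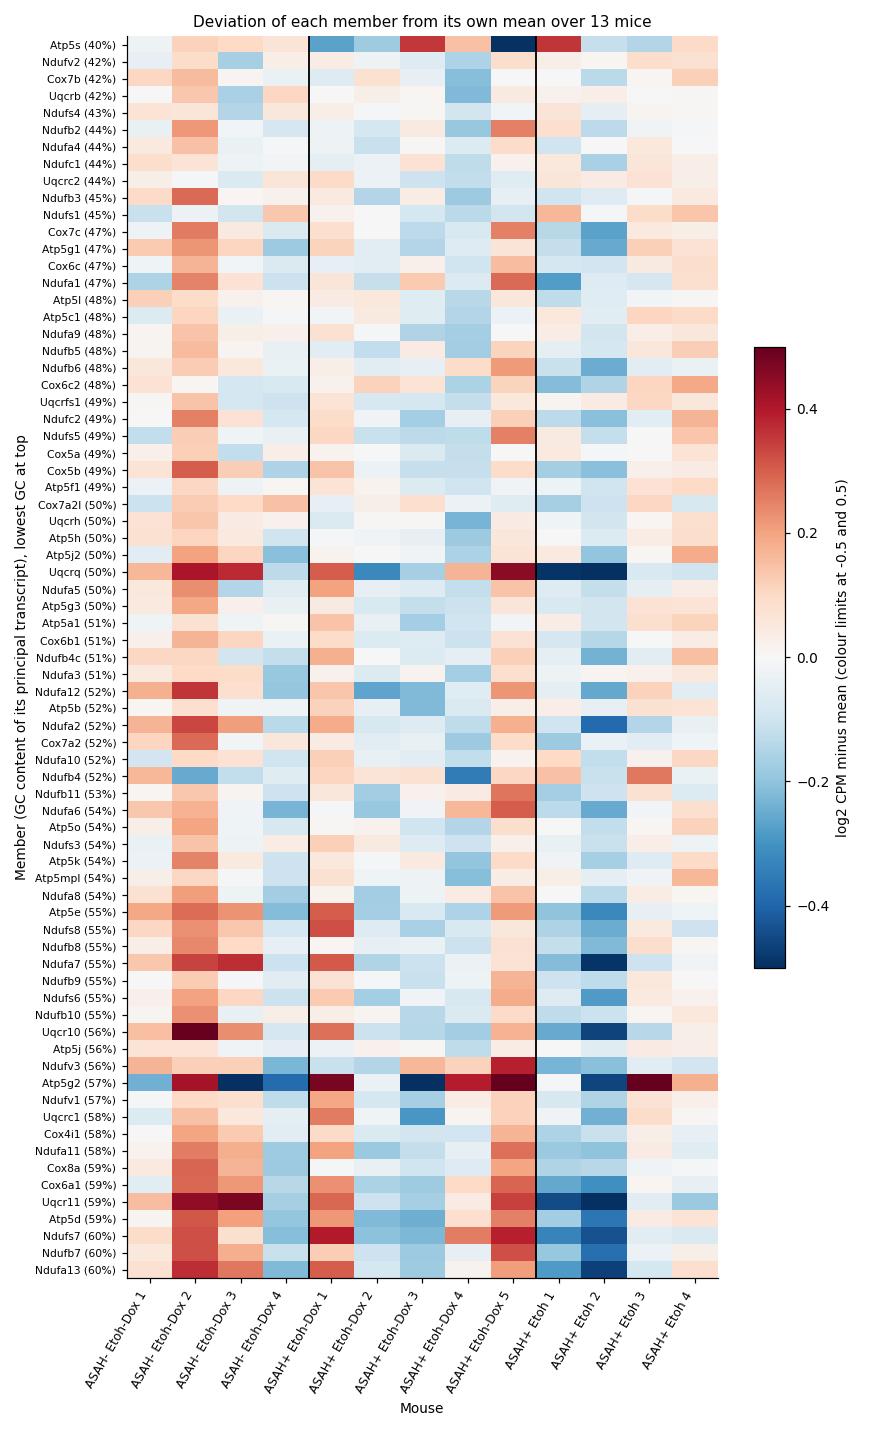
Deviation of 73 members (rows, ordered from low to high GC content, lowest at top) each from its own mean log2 CPM in each of the 13 mice (columns, black lines between the groups), with red for above and blue for below the mean. Apart from Atp5s, Uqcrq and Atp5g2, the lower rows are the most strongly coloured, mostly red in ASAH- replicate 2 and ASAH+ Etoh-Dox replicates 1 and 5 and blue in ASAH+ Etoh replicate 2.

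Other measures moved with the second and the third comparisons. All 5 red cell markers were higher than in ASAH+ Etoh mice, with median log2 fold changes of 1.85 and 2.16, and all 5 had an unadjusted p-value below 0.05 in each, though none passed after adjustment. Their summed level was 0.0216 to 0.169% of counts in ASAH- mice, 0.0254 to 0.0857% in ASAH+ Etoh-Dox mice and 0.0136 to 0.0187% in ASAH+ Etoh mice, and none of the 5 was at 0 in any mouse. The 7 Kupffer cell and macrophage markers had positive log2 fold changes in both, with medians of 0.28 and 0.59, and summed to 0.0386 to 0.0800%, 0.0272 to 0.0568% and 0.0297 to 0.0389% in the same order of groups, none at 0. In the third comparison 5 of these 7 had an unadjusted p-value below 0.05 (none after adjustment). The 6 stellate cell markers were all above 0 there (median 0.27, 2 with an unadjusted p-value below 0.05) and 4 of 6 were in the second (0.055). The 5 cholangiocyte markers were all above 0 in the third (0.29) and 1 of 5 was in the second (-0.079). The 8 hepatocyte markers had medians of -0.095 and 0.050 and ran both ways, from -0.70 to 0.26 in the second and from -0.39 to 0.54 in the third. At an unadjusted p-value below 0.05, 2 of the 8 were lower in the second and 1 was higher in the third, and none passed after adjustment. The 80 ribosomal protein genes tested had medians of 0.083 and 0.13, with 65 and 72 above 0. Of them 13 and 22 had an unadjusted p-value below 0.05, all higher (7.29% and 9.18% of all genes), and none passed after adjustment. Of the 6 endothelial markers, 5 were lower in ASAH+ Etoh-Dox than in ASAH+ Etoh mice at an unadjusted p-value below 0.05 (median of the 6 -0.48). In the third comparison 4 of the 6 were below 0 (median -0.11), and 0 had an unadjusted p-value below 0.05. The part of these lists in the members' values was not tested. The mice also differed in the log2 ratio of the clock genes Dbp to Arntl, from -1.56 to 6.27, which spanned -0.92 to 6.07 within the ASAH- mice alone.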

How the data were processed

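Liver RNA of 13 mice was sequenced from poly(A)-selected stranded libraries. The authors made estimated counts with Salmon and tximport (annotation of GRCm38.p6), and the deposited expected counts per gene were all whole numbers, with 17819486 to 35358711 per mouse. Symbols and transcript lengths came from the GENCODE mouse release M21 annotation, and 53355 of 53392 rows matched. The paper names a different GENCODE mouse release for its mapping. The members and gene lists were chosen with earlier results of these data known. Genes passing edgeR's filterByExpr (14317) were tested with edgeR's quasi-likelihood test (edgeR 4.0.16, R 4.3.3, TMM, robust, 1 mean per group over all 13 mice), with Benjamini-Hochberg adjustment over all genes and a threshold of 0.1. The ± values of fold changes are standard errors. DESeq2 1.42.0 and limma-voom (limma 3.58.1) were alternatives, with other scalings, filters and each mouse left out. Exact permutation was two-sided over mice. Named genes were the 5 members of smallest p-value in each comparison, those with the highest and lowest level of each complex, isoform families, the complex I core, Atpif1 and, in each list of other pathway genes, those called or else of smallest p-value; other genes named (mt-Co1, mt-Nd3, Atp5a1, Atp5e, Atp5l, Atp5s, Uqcrc1, Uqcrc2, Uqcrfs1, Ndufa13, Ndufb4, Ndufb6) were added after their values were seen. The values of 1 member are not reported here and it is not drawn in the figures, though it enters every count and median.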

Additional observations from a re-analysis of the deposited data

Results flagged for a closer look

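Of 105 sets of values examined in groups of 4 or 5 mice, 2 held a mouse far from the others, where chance alone gives about 1 in 20. Both were in ASAH- Etoh-Dox replicate 2, the mouse in which 71 of 74 members stood above their own mean. Cox6c, a small subunit of complex IV, measured 122 CPM there and 104.9 to 107.8 CPM in the other 3 ASAH- mice, a gap of 0.831 of the group's range. Ndufb2, an accessory subunit of complex I, measured 26.2 CPM there and 21.6 to 22.3 CPM in the others, a gap of 0.857.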

How the results depend on the processing

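The count of members past the threshold was 0 in every comparison under all alternatives that give it, including members summed with their copies, which was chosen after seeing the data. Also added then were the median over the members without copies, the levels by principal transcript and the overlap in unscaled CPM. Leaving out each mouse in turn, the members' median log2 fold change ran from -0.079 to -0.0091 in the first comparison, from -0.0064 to 0.055 in the second and from 0.021 to 0.093 in the third, and over the other alternatives from -0.066 to -0.034, 0.0042 to 0.040 and 0.049 to 0.075. Replicate numbers name different mice and did not pair them (mean r of deviations -0.046 over 12 same-numbered pairs, 0.013 over 44 others). With the replicate block the medians were -0.066, 0.0042 and 0.064, and in the first comparison Ndufs7 turned to -0.016 and Ndufv3 to -0.043. Leaving out 1 mouse moved Ndufs7 between -0.021 and 0.16, Ndufv3 between -0.041 and 0.096 and Ndufs1 between -0.059 and 0.021 in the first comparison, and Ndufb3 between -0.061 and 0.0063 and Uqcrh between -0.072 and 0.00022 in the second. The cause was not tested. Standard errors of 0.064 to 0.31 on the log2 scale limit what could be seen, and doubts on sequence shared with copies bear on 11 members. The mitochondrially encoded genes were not searched for copies.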
